A study of Homo sapiens with 39 samples.

Results

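Enzalutamide plus talazoparib was compared with DMSO in C4-2B cells, and the comparison is described here across all genes. C4-2B is a castration-resistant prostate cancer cell line derived from LNCaP that was grown in medium with serum that was not described as stripped of hormones. The members were chosen by their labels: the 3 libraries of cells given enzalutamide (20 µM) with talazoparib (10 nM) and the 3 libraries given DMSO, the solvent, in a panel of 21 libraries, which are 6 of the 39 libraries of the series. All panel cells were plated, treated the next day and collected for RNA after 5 days. The same panel holds 3 libraries each of enzalutamide (20 µM), talazoparib (10 nM) and abiraterone (5 µM) plus olaparib (1 µM), which are used below to show where the combination differs, and 3 each of abiraterone and olaparib alone. All 21 libraries entered the fit and so set the spread behind each p-value. All groups share 1 cell line, and the labels do not say whether replicates A, B and C were separate cultures, so the p-values measure the spread between these libraries, which may be technical.

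Androgens activate genes of the prostate epithelium, such as those for secreted proteases and for lipid synthesis. Enzalutamide is an inhibitor of androgen signaling (ARPi). Talazoparib is a PARP inhibitor (PARPi). PARP1 and PARP2 bind broken DNA and attach chains of ADP-ribose there, and an inhibitor blocks this activity and holds the enzymes on DNA, so that forks of replication are disturbed. Cells answer such damage through ATM, ATR and p53, which raise the cell cycle inhibitor p21 (CDKN1A), and repair breaks by homologous recombination with BRCA1 and BRCA2. The comparison asks which genes differed after the pair.

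Estimated counts per gene added up to between 29707578 and 39905703 in the DMSO libraries and between 33568040 and 49544844 in the combination libraries. Replicates differed by more than read sampling, since their chi-square per degree of freedom lay between 2.36 and 4.30. The share of counts from the mitochondrial genome was 9.68% to 10.1% with DMSO and 13.5% to 13.8% with the combination, with no overlap, and its part in the results below was not tested. Markers of prostate luminal epithelium added up to 4983 to 5197 CPM (counts relative to the library size, which was scaled by edgeR's TMM method) with DMSO and to 3449 to 3516 CPM with the combination, and none of the 10 was at 0. Of the basal markers, KRT5 and TP63 had no more than 3 counts in any library, KRT14 fell from 0.781, 0.233 and 0.38 CPM to 0.08, 0.0943 and 0.0586 CPM and DST held about the same level in both groups, so that the 5 markers added up to 23.3 to 24.6 CPM with DMSO and 20.3 to 25.3 CPM with the combination. Of the 8 leukocyte markers, CD3E, MS4A1 and NKG7 were at 0 in all 6 libraries, CD68 held most of the sum (4.81 to 7.57 CPM with DMSO and 5.56 to 6.18 CPM with the combination), LYZ fell from 0.441, 0.175 and 0.431 CPM to 0.04, 0.0236 and 0.146 CPM, and PTPRC, given below, rose. The 6 endothelial markers added up to 14.1 to 16.4 CPM and 15.4 to 16.3 CPM, nearly all of it VWF, with EMCN the 1 of 2 tested that rose.

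Of 63187 genes in the table, 18625 passed the filter on low counts and were tested. Between the combination and DMSO, 11630 genes (62.4% of those tested) differed (edgeR quasi-likelihood test, adjusted p below 0.05), 5808 higher (31.2%) and 5822 lower (31.3%). With a log2 fold change of at least 1, 1804 genes were higher (9.69%) and 789 lower (4.24%), so the larger changes were more often rises. A log2 change of at least 4 was reached by 91 genes that were higher and 80 that were lower. The 789 genes that fell by at least 1 on the log2 scale took 4.76% to 4.80% of all counts with DMSO and 1.66% to 1.68% with the combination. The 1804 genes that rose by as much took 0.997% to 1.03% of counts with DMSO and 2.92% to 2.97% with the combination. Among 13995 protein-coding genes tested, 34.1% were higher and 36.6% lower, and among 3565 lncRNA genes 23.2% were higher and 16.4% lower. In bulk RNA, fewer cells of a kind and less RNA per cell cannot be told apart, which holds for every value below.

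**Figure D1:**
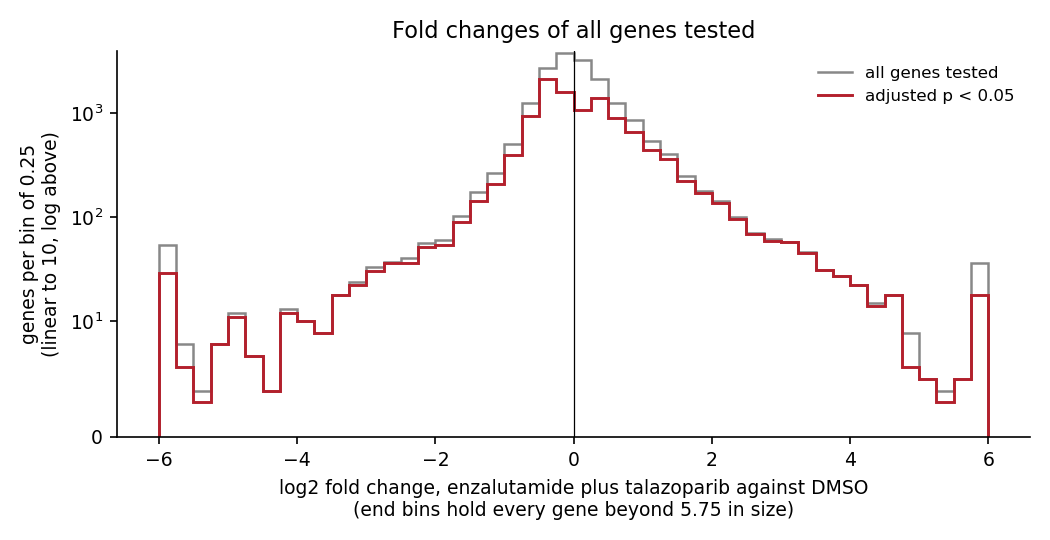
Genes per log2 fold change bin of 0.25 for enzalutamide plus talazoparib against DMSO, with all genes tested in grey and those at an adjusted p under 0.05 in red. The vertical axis is linear to 10 and logarithmic above, and the right arm is broader, with 1804 genes higher against 789 lower at a log2 fold change of at least 1.

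Androgen response genes were mostly lower after the combination. Of 69 members tested of a list of 70, 59 fell and 7 rose, against 31.3% lower and 31.2% higher over all genes, and the median log2 fold change was -1.34 where that of all genes was 0.01. The same shares over all genes are the background for every list counted against DMSO below. KLK3 (chr19:50854915-50860764, plus strand, GRCh38), which encodes prostate-specific antigen, held 1507, 1409 and 1434 CPM in the DMSO libraries and 347, 323 and 323 CPM in the combination libraries. Every combination library lay far below every DMSO library, a fall of 4.38-fold (log2 fold change -2.13 ± 0.046 (SE), edgeR adjusted p = 3.95e-17, n = 3 per group). FKBP5, a cochaperone of steroid receptors, held 826, 838 and 857 CPM with DMSO and 119, 120.3 and 124 CPM with the combination. Its groups did not overlap either, and its log2 fold change was -2.79 ± 0.028 (edgeR adjusted p = 1.95e-39). TMPRSS2, a membrane serine protease, went from 283, 249.6 and 219 CPM to 51.1, 49.6 and 49.4 CPM, and the 3 combination libraries were nearly equal while the DMSO libraries spread. KLK2, the kallikrein next to KLK3, went from 105, 98.7 and 99.8 CPM to 17.8, 16.4 and 17.3 CPM, also without overlap. KLK2 and KLK3 are alike in sequence, so the split of their reads by Salmon is uncertain.

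The start of KLK3 is shown because its promoter holds the core of an androgen response element. The bases from 250 before to 1 before the RefSeq start (chr19:50854665-50854914, plus strand, GRCh38.p14) are printed 5′ to 3′ with AGAACA in capitals, which begins 170 bases before the start.
KLK3: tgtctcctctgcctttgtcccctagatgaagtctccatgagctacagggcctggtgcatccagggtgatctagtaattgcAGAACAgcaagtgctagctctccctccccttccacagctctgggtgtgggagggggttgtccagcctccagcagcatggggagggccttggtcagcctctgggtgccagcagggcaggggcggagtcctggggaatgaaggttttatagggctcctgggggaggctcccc

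AGAACA, searched on both strands, was held by this promoter alone among the 55 list members that matched a RefSeq promoter by symbol, or 1.82%, and by 12.4% of 27305 promoters of the same length. Such a match describes letters and is no binding site by itself.

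The largest falls in the list were those of HPGD, which inactivates prostaglandins, of CHRNA2, a nicotinic receptor subunit, and of AKAP12, a scaffold of protein kinase A. HPGD held 3.19, 3.17 and 3.52 CPM with DMSO and 0.02, 0.0707 and 0.0586 CPM with the combination (log2 fold change -6.02 ± 0.50, edgeR adjusted p = 6.71e-10). CHRNA2 held 28.2, 24.3 and 27.1 CPM with DMSO and 0.46, 0.589 and 0.439 CPM with the combination. AKAP12 held 22.5, 17.6 and 16.1 CPM with DMSO and 0.38, 0.471 and 0.381 CPM with the combination, the widest spread among the DMSO libraries of these 3 genes. The 7 members that rose, named after their values were seen, were ACP3, prostatic acid phosphatase (log2 fold change 1.74), HSD17B14 (1.37), PPFIA2 (0.75), ARID5B (0.48), STEAP2 (0.43), ZMIZ1 (0.23) and STEAP1 (0.20).

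Against each drug alone, the androgen list separated the treatments. Its median log2 fold change against DMSO was -1.40 with enzalutamide and 0.18 with talazoparib, both against the same DMSO libraries. Tested directly against talazoparib, 62 of 69 members were lower and 6 higher with the combination, where 29.7% of all genes were lower and 29.1% higher. Against enzalutamide, 30 members were higher and 11 lower with the combination, where 16.5% of all genes were higher and 17.9% lower, and these shares are likewise the background for the other lists against each drug. The mean of KLK2 was 14 ± 0.166 CPM (SD, n = 3) with enzalutamide alone, and its log2 difference between the combination and enzalutamide was 0.29 ± 0.052 (edgeR adjusted p = 3.07e-05). For KLK3 the difference from enzalutamide was 0.12 ± 0.045 (edgeR adjusted p = 0.0468), and for FKBP5 it was 0.01 ± 0.028 and not past the threshold (edgeR adjusted p = 0.759).

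**Figure D2:**
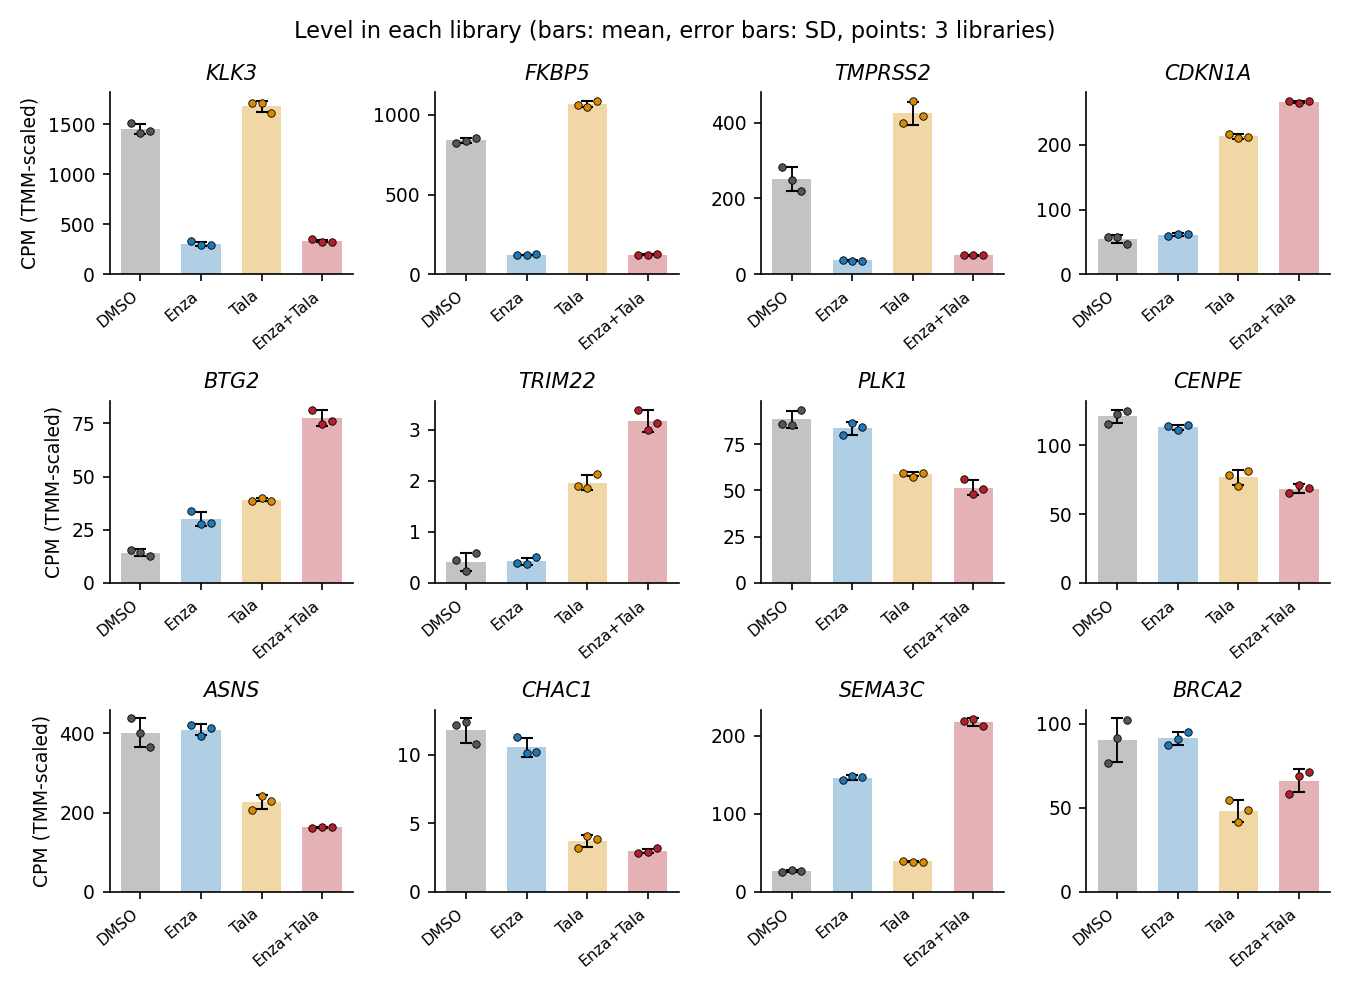
TMM-scaled CPM of 12 genes in each of 3 libraries of DMSO, enzalutamide (Enza), talazoparib (Tala) and both (Enza+Tala), with bars for the mean and error bars for the SD. KLK3, FKBP5 and TMPRSS2 are low wherever enzalutamide was given, CDKN1A is high wherever talazoparib was given, and BTG2 and SEMA3C are highest in the combination.

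Transcription factors and coregulators of the prostate lineage went in both directions. Among 17 tested members of a list of 22, 8 rose and 8 fell, with a median of 0.05. SPDEF, an ETS factor of luminal cells, fell from 143, 139 and 143 CPM to 39.1, 37.4 and 40.3 CPM. SOX9, a factor of prostate budding, rose from 4.31, 3.78 and 3.62 CPM to 10.7, 10.4 and 10.1 CPM. FOXA1, a pioneer factor that opens chromatin, fell by 0.16 on the log2 scale, and HOXB13, a homeobox factor of the prostate, had a log2 fold change of 0.05 that was not past the threshold except with total-count scaling (edgeR adjusted p = 0.0103) and without DMSO replicate A (0.04), both named after their values were seen.

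Genes of steroid synthesis and glucuronidation went in both directions. Of 20 tested (28 listed), 7 rose (35%, against 31.2%) and 9 fell (45%, against 31.3% of all genes), with a median log2 fold change of -0.18. UGT2B28, which conjugates androgens, fell from 53.5, 55.6 and 58.7 CPM to 2.38, 1.86 and 1.70 CPM, and UGT2B11 fell from 85.6, 84.6 and 82.9 CPM to 6.72, 7.75 and 7.58 CPM. CYP11A1, which cleaves the side chain of cholesterol, fell from 2.58, 2.79 and 2.61 CPM to 0.36, 0.189 and 0.176 CPM. In the same family UGT2B17 and UGT2B15, which inactivate testosterone and dihydrotestosterone and were named after their values were seen, had log2 fold changes of 3.15 and 1.82 and were past the threshold. The UGT2B genes are close copies of each other, so the division of reads between them is uncertain.

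Targets of p53 were mostly higher. Of 53 members, all tested, 40 rose and 7 fell, and the median log2 fold change was 0.62. CDKN1A (chr6:36676460-36687337, plus strand), which encodes p21, held 58.2, 57.3 and 46.8 CPM with DMSO and 268, 265 and 267 CPM with the combination. The combination libraries agreed closely and stood 4.95-fold above DMSO (log2 fold change 2.31 ± 0.053, edgeR adjusted p = 1.56e-18). With talazoparib alone the mean was 213 ± 3.45 CPM (SD, n = 3) and with enzalutamide alone 61.1 ± 2.00 CPM, and the combination was above talazoparib by 0.32 ± 0.048 on the log2 scale (edgeR adjusted p = 7.31e-06). BTG2, an antiproliferative cofactor, held 15.6, 14.7 and 12.5 CPM with DMSO and 81.6, 74.8 and 76.3 CPM with the combination. Its mean was 30.1 CPM with enzalutamide and 39.2 CPM with talazoparib, and the combination was above each (edgeR adjusted p = 1.22e-12 and 2.37e-11). SPATA18, which acts in mitochondrial quality control, rose from 3.29, 3.61 and 3.52 CPM to 18.5, 19.6 and 18.1 CPM. TRIM22, an antiviral ubiquitin ligase that p53 and interferon both activate, rose from 0.441, 0.233 and 0.583 CPM to 3.40, 2.99 and 3.13 CPM, with no overlap.

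MDM2, a ubiquitin ligase in a feedback loop of this pathway, rose from 178, 179.9 and 180.4 CPM to 249, 268 and 265 CPM (log2 fold change 0.54 ± 0.029, edgeR adjusted p = 7.48e-18). Against enzalutamide alone, 40 of the 53 p53 targets were higher and 2 lower with the combination, and against talazoparib alone 34 were higher and 9 lower. The list median against DMSO was 0.17 with enzalutamide, 0.40 with talazoparib and 0.62 with both. The 7 members that fell, named after their values were seen, were PERP, ASCC3, PMAIP1, E2F7, CMBL, TNFRSF10A and TRIAP1, with log2 fold changes from -0.57 to -0.13. The call of TNFRSF10A was lost in 6 of 13 alternatives (edgeR adjusted p up to 0.0983), among them without DMSO replicate A or B or combination replicate A or B, and that of TRIAP1 without combination replicate C (0.0504). The p53 consensus decamer lay in the 250 bases before the start of 6 of the 41 members with a RefSeq promoter (14.6%), against 5.53% of all promoters.

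Among 31 tested genes of the BCL2 family, caspases and death receptors (33 listed), 17 rose and 7 fell, with a median log2 fold change of 0.20. The death receptor FAS held 3.19, 3.06 and 2.36 CPM with DMSO and 14.4, 14.3 and 14 CPM with the combination. BMF, a BH3-only protein that binds BCL2, rose from 7.78, 6.69 and 5.50 CPM to 24.5, 22.6 and 22.8 CPM. BBC3, the BH3-only protein PUMA, rose from 1.83, 1.63 and 1.47 CPM to 5.16, 4.45 and 3.98 CPM, so in all 3 genes the groups stood apart. FAS overlaps ACTA2, which lies on the opposite strand, and since the strand setting of the counting was not stated their reads may not be fully separated.

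Genes of mitosis were lower almost throughout, by small amounts. Of 63 members tested, 58 fell and 1 rose, and the median log2 fold change was -0.44. PLK1, the kinase that drives entry into mitosis, held 86.2, 85.5 and 93.7 CPM with DMSO and 56.1, 47.9 and 50.6 CPM with the combination (log2 fold change -0.78 ± 0.051, edgeR adjusted p = 3.03e-13). CENPE, a kinetochore motor, held 115, 123 and 125 CPM with DMSO and 65.4, 71.3 and 69.2 CPM with the combination. KIF14, a motor of cytokinesis, held 42.8, 45.5 and 46.1 CPM with DMSO and 24.2, 27.3 and 25.6 CPM with the combination, again without overlap. The member that rose was CDK1, the mitotic kinase, with a log2 fold change of 0.23 ± 0.037, named after its value was seen. Against enzalutamide alone 62 of the 63 members were lower with the combination, where the list had a median of 0.03 with enzalutamide against DMSO. Against talazoparib alone, 22 of the 63 were higher and 13 lower, where 29.1% of all genes were higher and 29.7% lower, and the list median against DMSO was -0.50 with talazoparib.

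The PLK1 promoter is shown because many mitotic genes share 2 motifs, a CCAAT box and a cell cycle homology region (CHR), and PLK1 holds both and fell the most among called members that do. The printed bases are chr16:23678639-23678888, plus strand, GRCh38.p14, RefSeq, 5′ to 3′, with CCAAT and TTTGAA in capitals, 73 and 29 bases before the start.
PLK1: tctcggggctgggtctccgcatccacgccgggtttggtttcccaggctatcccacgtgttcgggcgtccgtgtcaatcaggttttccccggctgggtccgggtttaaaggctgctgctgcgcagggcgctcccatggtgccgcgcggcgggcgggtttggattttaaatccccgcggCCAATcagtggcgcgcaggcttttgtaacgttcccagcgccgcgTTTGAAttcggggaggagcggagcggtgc

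On either strand TTTGAA lay in 26 of the 52 mitotic promoters matched (50%) and in 13.6% of all promoters, and CCAAT lay in 39 of 52 (75.0%) and in 33.0% of all. Of the 47 mitotic genes with a promoter that fell, 24 held TTTGAA and 35 held CCAAT.

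DNA replication and G1/S genes were also lower by small amounts. Of 52 members, 35 fell and 3 rose, and the median log2 fold change was -0.26. CDC45, part of the replicative helicase, went from 43.1, 47.3 and 49.8 CPM to 28.2, 28.8 and 29.1 CPM (log2 fold change -0.71 ± 0.066, edgeR adjusted p = 6.27e-10). PRIM1, the catalytic subunit of primase, fell from 36.1, 38.8 and 40.1 CPM to 24.2, 25.1 and 23.5 CPM. RRM2, a subunit of ribonucleotide reductase, fell from 172, 189 and 217 CPM to 123, 130.5 and 127 CPM. LIG1, DNA ligase I, was the largest of the 3 that rose, by 0.44 on the log2 scale, and MCM3 and POLE were the others, all named after their values were seen. Against talazoparib alone 24 members were higher and 9 lower with the combination, and against enzalutamide alone 1 was higher and 36 lower. The E2F core TTTGGCGC lay on either strand in 6 of 43 matched promoters (14%) against 0.553% of all promoters.

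Among 15 tested genes of the D cyclins, their kinases and inhibitors (16 listed), 4 rose (26.7%, against 31.2% of all genes) and 7 fell (46.7%, against 31.3%), with a median of -0.12. CDK6, a kinase that D cyclins activate, fell from 10.4, 10.2 and 11.1 CPM to 4.02, 3.54 and 4.80 CPM. CCNG2, an atypical cyclin found in arrested cells, rose from 25.5, 23.6 and 18.2 CPM to 70.3, 69.9 and 73.0 CPM. CDKN1A was the largest rise of the list.

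Homologous recombination and Fanconi genes moved little. Of 42 members, 22 fell, 4 rose and 16 did not pass the threshold, with a median log2 fold change of -0.14. BRCA2, a mediator of strand exchange, held 76.3, 91.4 and 102 CPM with DMSO and 58.4, 68.6 and 71.0 CPM with the combination (log2 fold change -0.46 ± 0.10, edgeR adjusted p = 0.00126). The groups did not overlap but lay close, and with only these 6 libraries in the fit the edgeR call was lost (-0.45, adjusted p = 0.0509). BRCA1, the ubiquitin ligase upstream of BRCA2, held 71.8, 80.3 and 82.8 CPM with DMSO and 71.9, 77 and 77.9 CPM with the combination. Its groups overlapped and its log2 fold change of -0.06 ± 0.05 did not pass (edgeR adjusted p = 0.353), although it did without DMSO replicate A (-0.11, adjusted p = 0.0407). PALB2, which joins BRCA1 to BRCA2, had a log2 fold change of -0.12 ± 0.048 (edgeR adjusted p = 0.0334), and the call was lost in 10 of its 13 alternatives, each replicate left out included.

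BARD1, the partner of BRCA1, was the exception in size. It held 73.3, 82.5 and 83.3 CPM with DMSO and 183, 179 and 178 CPM with the combination, 2.25-fold higher (log2 fold change 1.17 ± 0.038, edgeR adjusted p = 2.09e-23). Its mean was 172 ± 4.52 CPM with enzalutamide and 63.7 ± 2.75 CPM with talazoparib. FANCL, the ubiquitin ligase of the Fanconi core complex, rose from 8.01, 10.4 and 9.75 CPM to 13.4, 12.9 and 14.5 CPM. ATR, the kinase that answers stalled forks, fell from 86.5, 93.9 and 102 CPM to 68.3, 73.0 and 73.2 CPM, and its effector CHEK1 fell from 48.8, 54.1 and 59.3 CPM to 46.4, 46.6 and 44 CPM. ATM, the kinase that answers double-strand breaks, had a log2 fold change of 0.02 ± 0.056 and did not pass (edgeR adjusted p = 0.77). Against talazoparib alone, 25 of the 42 members were higher and 4 lower with the combination, where 29.1% of all genes were higher and 29.7% lower. Among these BRCA2 stood 0.45 ± 0.11 above talazoparib (edgeR adjusted p = 0.00194) and BRCA1 0.41 ± 0.051 (edgeR adjusted p = 1.23e-07). Against enzalutamide alone, 1 was higher and 24 lower, where 16.5% of all genes were higher and 17.9% lower.

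The targets of talazoparib fell slightly, and the PARP list as a whole went in both directions. PARP1 held 568, 576 and 579.6 CPM with DMSO and 479, 482 and 476 CPM with the combination (log2 fold change -0.26 ± 0.021, edgeR adjusted p = 4.28e-13). PARP2 fell from 35.2, 37.0 and 36.3 CPM to 31.1, 32.2 and 31.6 CPM, and PARG, which removes ADP-ribose chains, from 66.9, 70.9 and 66.3 CPM to 58.6, 59.0 and 56.4 CPM. PARP10, PARP14 and PARP3, which add ADP-ribose to proteins as single units, rose by 0.96, 0.93 and 0.92 on the log2 scale. Over 21 tested genes of the PARP family and ADP-ribose enzymes (22 listed), 10 rose (47.6%, against 31.2% of all genes), 6 fell (28.6%, against 31.3%) and 5 did not pass, with a median of 0.13.

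Genes that the transcription factor ATF4 activates for amino acid supply were lower, and more so than with either drug alone. Of 30 members, 25 fell and 2 rose, with a median log2 fold change of -0.84 against DMSO. The median was -0.04 with enzalutamide and -0.50 with talazoparib against the same DMSO libraries. Tested directly, 25 members were lower than with enzalutamide, and 20 lower and 3 higher than with talazoparib. ASNS, asparagine synthetase, held 438, 402 and 366 CPM with DMSO and 161, 164 and 163 CPM with the combination. The combination libraries were nearly equal and stood below DMSO by 1.31 ± 0.062 (log2, edgeR adjusted p = 1.85e-11) and below talazoparib by 0.48 ± 0.062 (edgeR adjusted p = 6.17e-06). TRIB3, a pseudokinase that ATF4 induces, fell from 71.8, 67.8 and 63.5 CPM to 23.8, 21.8 and 23.6 CPM. SLC7A11, the cystine transporter, fell from 190.4, 190.0 and 176 CPM to 65.6, 69.6 and 73.0 CPM, and its mean of 67.3 ± 6.15 CPM with talazoparib alone did not differ past the threshold (log2 difference 0.04 ± 0.071, edgeR adjusted p = 0.672). SESN2 and DDIT4, which restrain mTORC1 and were named after their values were seen, were the 2 that rose (0.33 and 0.31 on the log2 scale). The call of DDIT4 was lost without DMSO replicate C (edgeR adjusted p = 0.0681) and without combination replicate A (0.0623).

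CHAC1, which degrades glutathione, had the largest fall of the list. It held 12.2, 12.4 and 10.8 CPM with DMSO and 2.86, 2.92 and 3.16 CPM with the combination (log2 fold change -1.98 ± 0.12, edgeR adjusted p = 5.11e-16), without overlap. Its promoter is shown because it holds the composite element that ATF4 binds with C/EBP partners, TGATGNAA, here read on the opposite strand. The bases are chr15:40953221-40953470, plus strand, GRCh38.p14, RefSeq, 5′ to 3′, with the element in capitals, and it begins 209 bases before the start.
CHAC1: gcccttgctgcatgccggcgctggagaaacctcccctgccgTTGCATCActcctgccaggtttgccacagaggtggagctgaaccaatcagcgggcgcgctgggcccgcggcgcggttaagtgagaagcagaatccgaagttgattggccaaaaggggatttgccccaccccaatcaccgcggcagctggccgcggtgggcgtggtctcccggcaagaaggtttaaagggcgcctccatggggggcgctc

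On either strand this element lay in 3 of the 24 promoters of the list that were matched (12.5%) and in 3.19% of all promoters.

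Aminoacyl-tRNA synthetases, which charge tRNAs with amino acids, were lower too. Of 34 members, 27 fell and 2 rose, with a median of -0.39. GARS1, for glycine, fell from 343, 337 and 316 CPM to 167, 169 and 169 CPM, CARS1, for cysteine, by 0.99 on the log2 scale and YARS1, for tyrosine, by 0.89 on the same scale. Each of these 3 also stood below both drugs alone, with edgeR adjusted p of 4.13e-12 for CARS1, 2.21e-14 for GARS1 and 4.28e-16 for YARS1 against talazoparib. HARS2 and SARS2, mitochondrial enzymes named after their values were seen, rose by 0.41 and 0.17 on the log2 scale. The call of SARS2 was lost without DMSO replicate A, DMSO replicate B or combination replicate C (edgeR adjusted p = 0.0735, 0.135 and 0.0644).

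Genes of the endoplasmic reticulum fell in nearly every case. Of 38 chaperones, translocon subunits and unfolded protein response genes, 37 fell, with a median of -0.56, and SSR4 was the member that did not pass (log2 fold change -0.08, edgeR adjusted p = 0.0577). SSR3, a subunit of the translocon-associated complex, fell from 492, 496 and 517 CPM to 227, 226 and 225 CPM. SDF2L1, a chaperone cofactor, fell from 21.8, 22.8 and 24.4 CPM to 11.5, 9.36 and 10.2 CPM, and SPCS3, of the signal peptidase, from 179, 178 and 186 CPM to 87.1, 87.0 and 81.0 CPM. Their groups were far apart. All 38 members were lower than with talazoparib alone, and 31 were lower and 2 higher than with enzalutamide alone.

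The MYC and ribosome biogenesis list had 32 of 35 members lower, with a median of -0.41. ODC1, which starts polyamine synthesis, fell from 764, 791 and 804 CPM to 448, 429.8 and 428 CPM, and SRM, spermidine synthase, from 129, 132 and 139 CPM to 74.5, 72.9 and 71.8 CPM. LYAR, a nucleolar protein, fell by 0.74 on the log2 scale. WDR12, POLR1A and POLR1C did not pass the threshold, although POLR1A did without DMSO replicate A (edgeR adjusted p = 0.00181) and without combination replicate A (0.048). Of 37 tested proteasome genes (39 listed), 33 fell and 2 rose, with a median of -0.38. PSMD8, PSMC3 and PSMD14, subunits of the regulatory particle, fell by 0.75, 0.66 and 0.61 on the log2 scale. The 2 that rose, named after their values were seen, are subunits of the immunoproteasome that interferon induces, and both held few counts. PSMB8 went from 0.17, 0.233 and 0.076 CPM to 0.5, 0.401 and 0.615 CPM (edgeR adjusted p = 0.000534) and PSMB9 from 0.102, 0.116 and 0.0507 CPM to 0.16, 0.212 and 0.381 CPM (edgeR adjusted p = 0.0246). Of these, PSMB9 lost its call without a filter (edgeR adjusted p = 0.0581), with DESeq2 (0.058), without DMSO replicate C (0.124) and without combination replicate C (0.146). It was not tested with only the groups compared, and neither gene was tested with a minimum of 1 CPM in 3 libraries.

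**Figure D3:**
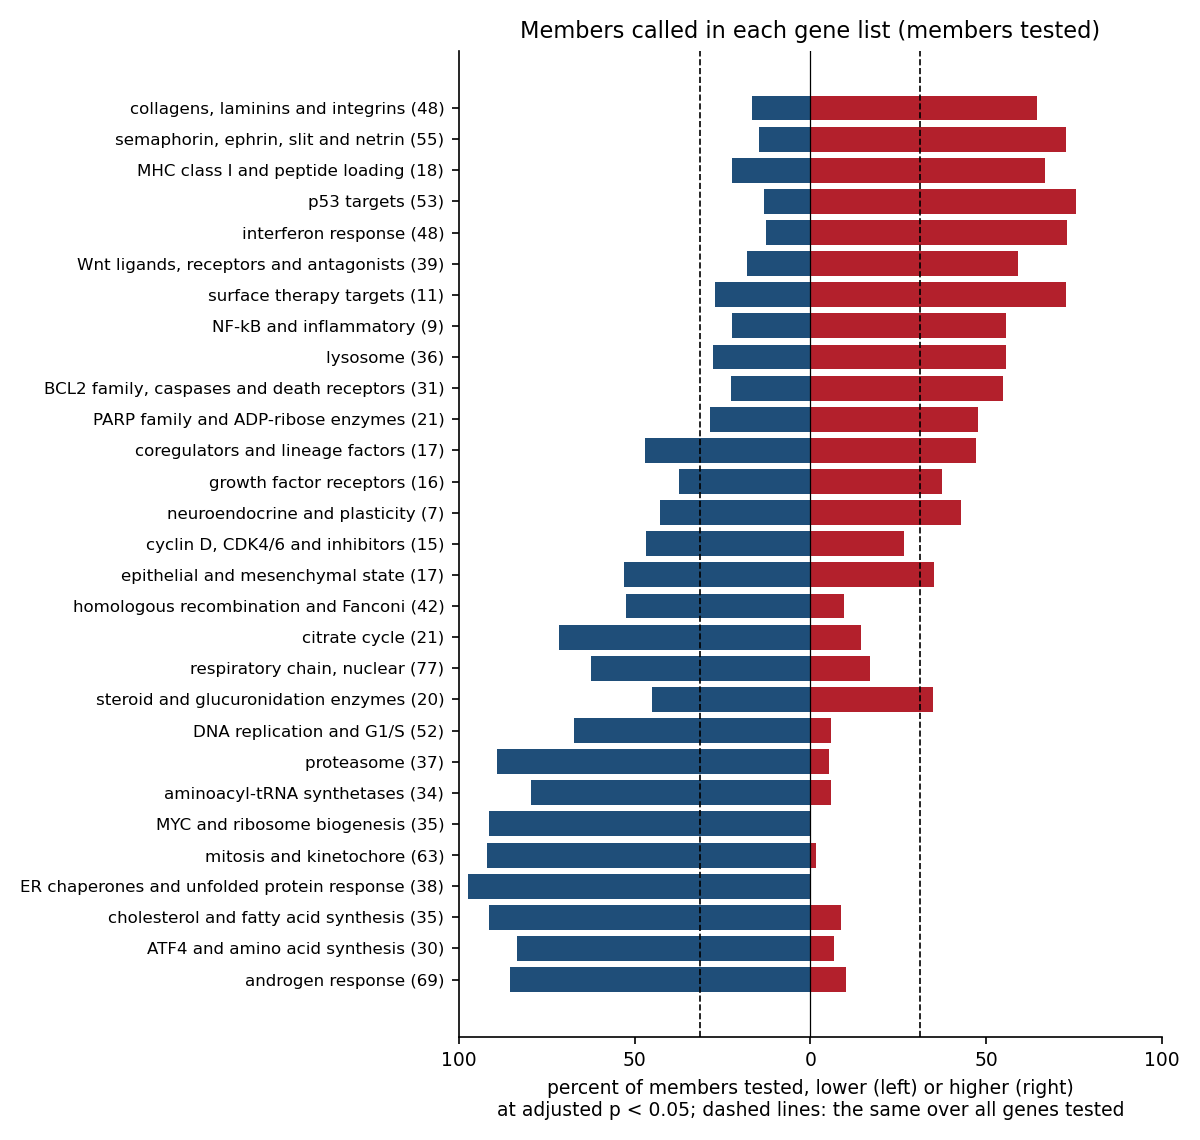
Percent of tested members of 29 gene lists that were lower (blue, left) or higher (red, right) in enzalutamide plus talazoparib against DMSO at an adjusted p under 0.05, with the number tested in parentheses and the shares over all genes as dashed lines. The lists are ordered by their median log2 fold change, from 0.73 for collagens, laminins and integrins at the top to -1.34 for the androgen response at the bottom.

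Cholesterol and fatty acid synthesis genes mostly fell. Of 35 tested members of 36, 32 fell and 3 rose, with a median of -0.64. ELOVL5, which elongates polyunsaturated fatty acids, held 943, 953 and 936 CPM with DMSO and 254, 250.4 and 256 CPM with the combination (log2 fold change -1.90 ± 0.024, edgeR adjusted p = 2.35e-36). STARD4, a cholesterol carrier, fell from 37.4, 35.6 and 37.1 CPM to 10.9, 12 and 11.8 CPM, and in neither gene did the groups overlap. TM7SF2 (1.55), ELOVL6 (1.30) and HSD17B7 (0.44) rose, and were named after their values were seen. ELOVL5 was higher with the combination than with enzalutamide alone by 0.27 ± 0.024 (edgeR adjusted p = 2.81e-11).

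Mitochondrial metabolism genes encoded in the nucleus shifted by small amounts. Of 77 respiratory chain genes, 48 fell and 13 rose, with a median of -0.16, and of 21 citrate cycle genes 15 fell and 3 rose, with a median of -0.15. ATP5MC1, a subunit of the ATP synthase ring, fell from 102, 98.9 and 106 CPM to 65.8, 58.5 and 62.0 CPM. NDUFB7 of complex I and SDHB of complex II fell by 0.63 and 0.60 on the log2 scale. DLAT, a subunit of pyruvate dehydrogenase, fell from 244, 250 and 247 CPM to 131, 129 and 129 CPM, and IDH3A, an isocitrate dehydrogenase, by 0.61. IDH2, the NADP-dependent isocitrate dehydrogenase of mitochondria, rose from 172, 167 and 163 CPM to 243, 247 and 241 CPM. Of 36 lysosomal genes, 20 rose and 10 fell, with a median of 0.26. IDUA, which degrades glycosaminoglycans, rose from 2.45, 2.42 and 2.20 CPM to 5.42, 6.76 and 7.35 CPM, CTSH, a cathepsin, by 0.91 on the log2 scale, and ASAH1, acid ceramidase, fell by 0.86.

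Interferon response genes were more often higher. Of 48 tested members of 54, 35 rose and 6 fell, with a median of 0.50. GBP2, a guanylate-binding protein, held 0.0679, 0.116 and 0.405 CPM with DMSO and 2.12, 2.12 and 2.72 CPM with the combination (log2 fold change 3.45 ± 0.32, edgeR adjusted p = 1.13e-11). IRF1, an interferon regulatory factor, rose from 1.36, 1.86 and 1.54 CPM to 5.98, 5.63 and 7.0 CPM. In both genes the groups were apart, though the levels were low. The 6 that fell, named after their values were seen, were EPSTI1 (-1.08), HERC6 (-1.01), HERC5 (-0.60), IFIH1 (-0.42), IFITM2 (-0.42) and USP18 (-0.20). The call of EPSTI1 was lost without DMSO replicate A or C or combination replicate A or B (edgeR adjusted p up to 0.207) and with DESeq2 (0.0522), and that of IFIH1 without a filter (0.0714) and without combination replicate C (0.102). The list median against DMSO was 0.27 with enzalutamide, 0.27 with talazoparib and 0.50 with both. Against enzalutamide 12 of the 48 members were higher and 3 lower with the combination, where 16.5% of all genes were higher and 17.9% lower. Against talazoparib 30 were higher and 6 lower, where 29.1% of all genes were higher and 29.7% lower.

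SAMD9, an antiviral factor, is shown for its promoter, as the member with the largest rise among those that hold the interferon-stimulated element core GAAANNGAA and average at least 50 counts in the higher group. Its level was 0.475, 0.32 and 0.481 CPM with DMSO and 1.66, 1.18 and 1.67 CPM with the combination (log2 fold change 1.81 ± 0.32, edgeR adjusted p = 6.24e-06). The bases are chr7:93117980-93118229, minus strand, GRCh38.p14, RefSeq, written 5′ to 3′ along the gene, with the core in capitals 136 bases before the start.
SAMD9: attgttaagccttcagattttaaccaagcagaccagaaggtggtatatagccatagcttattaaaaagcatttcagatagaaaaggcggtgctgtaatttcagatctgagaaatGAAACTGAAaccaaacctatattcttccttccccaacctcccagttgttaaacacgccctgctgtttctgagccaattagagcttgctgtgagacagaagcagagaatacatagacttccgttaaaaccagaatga

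On either strand the core lay in 25 of the 44 promoters of the list that were matched (56.8%) and in 7.06% of all promoters. Of the 29 matched genes that rose 15 held it, and of the 4 that fell 3 held it.

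Of 18 tested genes of MHC class I and peptide loading (20 listed), 12 rose and 4 fell, with a median of 0.64. NLRC5, the transactivator of MHC class I genes, rose from 0.747, 0.728 and 0.583 CPM to 2.66, 2.29 and 2.52 CPM. TAPBPL, a peptide editor, rose from 1.90, 2.04 and 2.46 CPM to 5.60, 5.47 and 5.06 CPM, and ERAP2, which trims peptides, from 1.09, 1.66 and 1.14 CPM to 2.02, 2.62 and 3.13 CPM. B2M, the light chain of class I molecules, fell by 0.63 on the log2 scale while HLA-B rose by 0.93, both named after their values were seen. The HLA genes share sequence, so reads may be divided between them uncertainly. Of 9 tested NF-kB and inflammatory genes (20 listed), 5 rose and 2 fell, with a median of 0.27. NFKB1, the p105 precursor, rose from 41.0, 46.0 and 42.2 CPM to 94.2, 97.8 and 93.8 CPM, TNFAIP2 by 1.30 and RELB, a partner of NFKB2, by 1.16 on the log2 scale. The other 11, among them IL6, CXCL8 and TNF, did not pass the filter on low counts.

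Adhesion, matrix and guidance genes were more often higher than lower. Of 48 tested collagens, laminins and integrins (64 listed), 31 rose and 8 fell, with a median of 0.73. COL5A1, a fibrillar collagen chain, rose from 0, 0.116 and 0.253 CPM to 4.76, 4.43 and 4.36 CPM (log2 fold change 5.04 ± 0.39, edgeR adjusted p = 1.07e-10), and its partner chain COL5A2 from 0.849, 0.466 and 0.937 CPM to 4.52, 4.97 and 4.19 CPM. LAMA1, a laminin chain, fell from 24.7, 27.9 and 30.2 CPM to 0.8, 1.15 and 1.29 CPM. Of the 8 markers of fibroblasts and smooth muscle, 4 were tested and 3 of them rose: COL1A1 from 13.7, 10.5 and 11.3 CPM to 20.6, 20.7 and 21.6 CPM, COL3A1 from 0.0679, 0.0873 and 0.0253 CPM to 0.58, 0.542 and 0.381 CPM, and ACTA2, given below. PDGFRB did not pass (log2 fold change 0.14), DCN and LUM had no more than 3 counts in any of the 6 libraries, and the sum of the 8 was 12.2 to 16.6 CPM with DMSO and 25.6 to 26.5 CPM with the combination. The part of such cells in the rise of the list was not tested.

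Of 55 tested genes of semaphorin, ephrin, slit and netrin signaling (70 listed), 40 rose and 8 fell, with a median of 0.68. SEMA3C, a secreted guidance cue, held 25.3, 27.4 and 27.1 CPM with DMSO and 219, 222 and 213 CPM with the combination, 8.17-fold higher (log2 fold change 3.03 ± 0.043, edgeR adjusted p = 3.66e-34). It stood above enzalutamide, at 146 ± 3.18 CPM, by 0.57 ± 0.036 (edgeR adjusted p = 1.54e-14), and talazoparib alone gave 39.0 ± 0.932 CPM. SEMA6B, a transmembrane semaphorin, rose by 2.87 and UNC5B, a netrin receptor, by 2.22 on the log2 scale. Of 39 tested Wnt genes (63 listed), 23 rose and 7 fell, with a median of 0.45. RNF43, a ligase that removes Wnt receptors, rose from 5.47, 6.26 and 4.86 CPM to 25.5, 25.1 and 22.2 CPM. The ligand WNT4 rose from 0.374, 0.466 and 0.38 CPM to 1.78, 2.26 and 1.84 CPM and the antagonist APCDD1 from 1.63, 1.51 and 1.32 CPM to 5.90, 5.84 and 6.53 CPM.

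Of 17 tested genes of epithelial and mesenchymal state (21 listed), 6 rose and 9 fell, with a median of -0.13. SNAI2, a repressor of epithelial genes, fell from 12.3, 13.8 and 11.5 CPM to 0.52, 0.896 and 0.849 CPM, while OCLN, a tight junction protein, rose from 38.9, 37.6 and 40.9 CPM to 103, 106 and 99.0 CPM. Fibronectin (FN1) rose from 192, 199 and 192 CPM to 412, 396 and 402 CPM. Of 7 tested neuroendocrine and plasticity genes (21 listed), 3 rose and 3 fell, with a median of -0.05. ENO2, a glycolytic enzyme used as a neuroendocrine marker, rose from 2.04, 2.10 and 2.10 CPM to 12.8, 12.8 and 13.7 CPM, while SYP, synaptophysin, and DLL3, a Notch ligand, fell by 1.17 and 0.56 on the log2 scale. CHGA, INSM1 and 12 others did not pass the filter on low counts.

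Among 16 tested growth factor receptors and adaptors (24 listed), 6 rose and 6 fell, close to the shares over all genes (31.2% and 31.3%), with a median of -0.03. IGF1R held 127, 140.0 and 154 CPM with DMSO and 46.4, 42.2 and 43.1 CPM with the combination, and its adaptors IRS1 and IRS2 fell with it, by 2.32 and 1.53 on the log2 scale. The mean of IGF1R was 28.5 ± 1.36 CPM with enzalutamide alone, and the combination was above it by 0.63 ± 0.086 (edgeR adjusted p = 2.82e-05). Of 11 tested genes for surface targets of prostate cancer therapies (13 listed), 8 rose and 3 fell, with a median of 0.43. NECTIN4, a cell adhesion molecule, rose from 10.0, 8.0 and 8.53 CPM to 20.8, 21.4 and 23.7 CPM, and PSCA, prostate stem cell antigen, fell from 22.0, 21.9 and 23.2 CPM to 11.8, 13.0 and 12.5 CPM. FOLH1, prostate-specific membrane antigen, named after its value was seen, rose by 0.31 on the log2 scale.

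**Figure D4:**
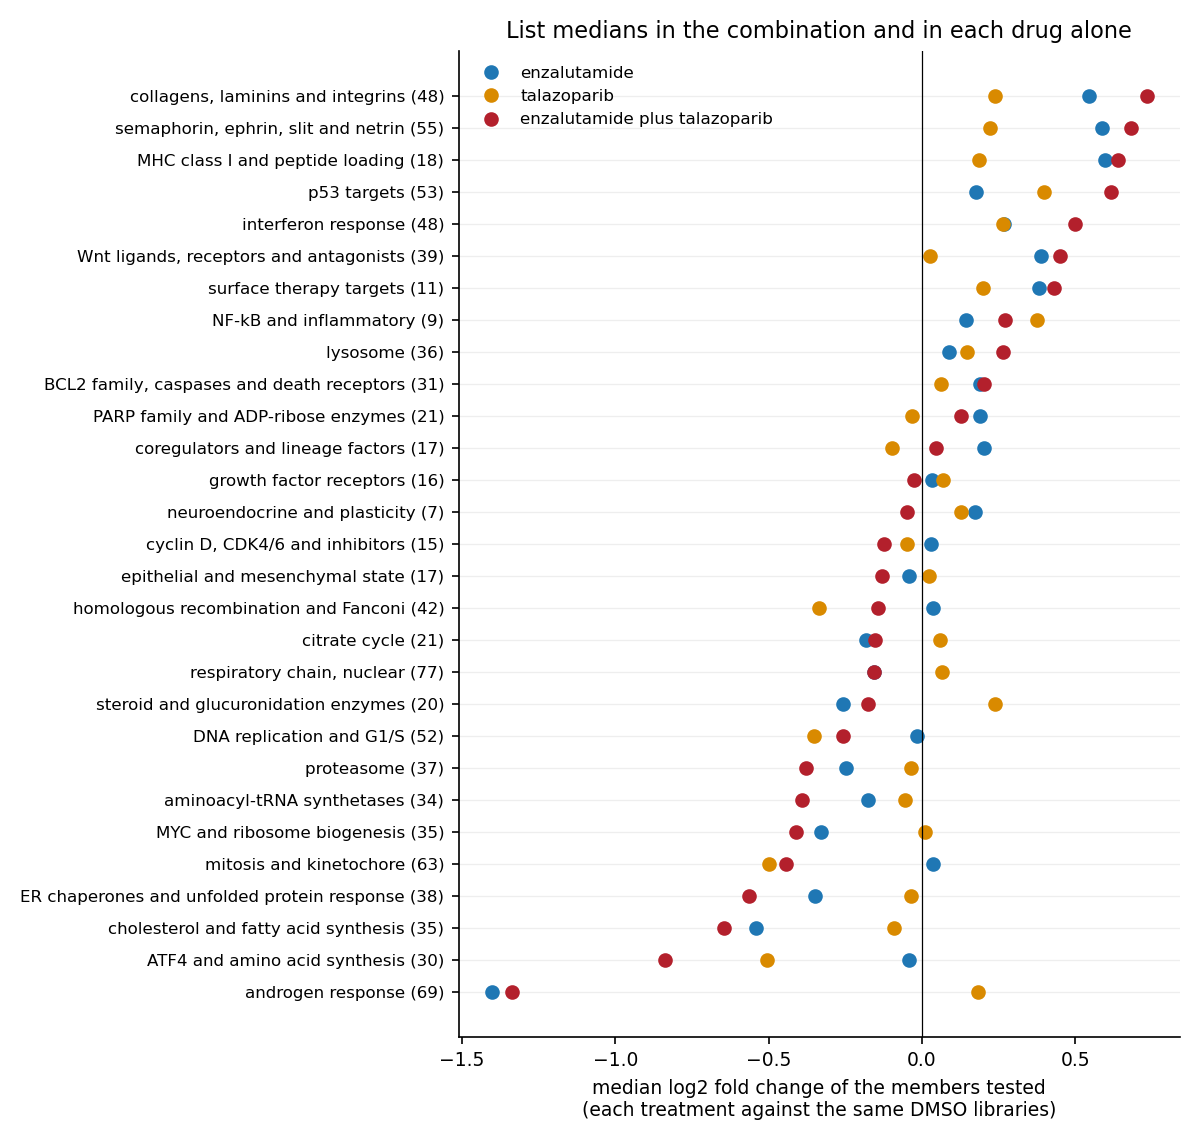
Median log2 fold change against the same DMSO libraries of the tested members of 29 gene lists, for enzalutamide (blue), talazoparib (orange) and both drugs (red). The androgen list lies near -1.34 with the combination and -1.40 with enzalutamide, the mitosis list near -0.44 with the combination and -0.50 with talazoparib, and the ATF4 list is lowest with the combination at -0.84.

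The largest changes among genes with a symbol that averaged 100 counts or more in the higher group included genes nearly silent in the other group. OR5B2, an olfactory receptor gene, had 101, 130 and 139 counts with DMSO and 0, 1 and 0 with the combination, a ratio of 453 with an exact 95% interval of 80.9 to 17957. SLC38A4, an amino acid transporter, had 143, 180 and 225 counts against 0, 1 and 1, a ratio of 336 (92.5 to 2780). SLC2A3, the glucose transporter GLUT3, had 129, 131 and 165 counts against 0, 2 and 1, a ratio of 174 (59.0 to 845). These intervals cover counting error only. With enzalutamide alone OR5B2, SLC38A4 and SLC2A3 had means of 0, 0.019 and 0 CPM. None of them differed past the threshold between the combination and enzalutamide (edgeR adjusted p = 0.409, 0.954 and 0.116). ADAM7, a metalloprotease-like gene of the epididymis, went from 21.4, 21.4 and 21.6 CPM to 0.1, 0.259 and 0.0293 CPM. Talazoparib alone gave 44 ± 2.03 CPM and enzalutamide alone 0.019 ± 0.0171 CPM. AKR1D1, a steroid reductase, PNLIPRP3, a lipase-related gene, TRGC1, a T cell receptor gamma constant segment, CCDC141 and SPAG17 had log2 fold changes of -6.60, -6.31, -6.50, -5.94 and -5.91, and HPGD, described above, completes the 10.

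Of the 10 largest rises, PLA2G2A, a secreted phospholipase, went from 0.136, 0 and 0.228 CPM to 17.9, 16.5 and 16.1 CPM (log2 fold change 7.03 ± 0.23, edgeR adjusted p = 5.29e-20). MATN2, a matrix protein, went from 0.408, 0.349 and 0.38 CPM to 41.1, 41.0 and 41.0 CPM. UPK1A and UPK2, proteins of the urothelial surface, went from 0, 0.116 and 0 CPM to 5.28, 5.09 and 5.12 CPM and from 0.204, 0.378 and 0.0253 CPM to 5.72, 6.15 and 5.74 CPM. In all 4 genes the DMSO libraries were near 0 and the combination libraries were close to each other. PREX1, an activator of Rac, rose from 1.05, 1.25 and 1.47 CPM to 36.0, 33.3 and 35.7 CPM but stayed below enzalutamide alone, at 66.2 ± 6.04 CPM (log2 difference -0.92 ± 0.071, edgeR adjusted p = 2.27e-10). TUBA1A, an alpha tubulin with close copies, rose from 2.58, 2.18 and 1.85 CPM to 53.3, 52.6 and 53 CPM, and PLD1, a phospholipase D, from 1.29, 1.37 and 0.937 CPM to 27.8, 24.2 and 28.7 CPM. CCDC83, DNASE1L3 and COL5A1 had log2 fold changes of 6.09, 5.61 and 5.04. PTPRC, a leukocyte gene named after its values were seen, rose from 0, 0 and 0.076 CPM to 0.94, 0.896 and 1.17 CPM while CD3E, MS4A1 and NKG7 were at 0.

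Genes that differed from DMSO and from both drugs alone were ranked by their difference from enzalutamide. The 5 lowest were CHAC1, NIBAN1, STYXL2, H1-4 and ASNS. NIBAN1, a stress-induced regulator of translation, held 67.8, 63.3 and 49.7 CPM with DMSO and 20.1, 18.9 and 18.1 CPM with the combination, with means of 62.4 ± 7.53 CPM with enzalutamide and 28.6 ± 3.22 CPM with talazoparib. STYXL2, a pseudophosphatase, held 15.2, 15.2 and 13.7 CPM with DMSO and 1.2, 1.39 and 1.79 CPM with the combination, with 4.35 ± 0.741 CPM with enzalutamide and 8.27 ± 0.613 CPM with talazoparib. H1-4, a linker histone with close copies, held 8.12, 6.37 and 5.04 CPM with DMSO and 0.7, 1.11 and 1.23 CPM with the combination.

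The 5 highest were APOBEC3H, TRIM22, ADAM7, ACTA2 and SULF2. ADAM7 had only 5, 11 and 1 counts with the combination and 0.019 ± 0.0171 CPM with enzalutamide, so its rank rests on few counts. It met the count minimum through DMSO, which it was still far below. APOBEC3H, a cytidine deaminase, held 0.272, 0.175 and 0.152 CPM with DMSO and 3.28, 3.18 and 3.48 CPM with the combination, with means of 0.417 ± 0.126 CPM with enzalutamide and 1.88 ± 0.243 CPM with talazoparib. The combination stood above talazoparib by 0.81 ± 0.18 on the log2 scale (edgeR adjusted p = 0.000162). SULF2, which removes sulfate from heparan chains, held 0.34, 0.175 and 0.127 CPM with DMSO and 3.78, 4.10 and 3.69 CPM with the combination, with 0.623 ± 0.141 CPM with enzalutamide and 1.06 ± 0.21 CPM with talazoparib. ACTA2, smooth muscle actin, held 0.272, 0.116 and 0.177 CPM with DMSO and 2.44, 2.14 and 2.58 CPM with the combination, a low level in which the groups did not overlap, and it overlaps FAS as said above. Whether the effects of the drugs add up or depart from their sum was not tested here.

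**Figure D5:**
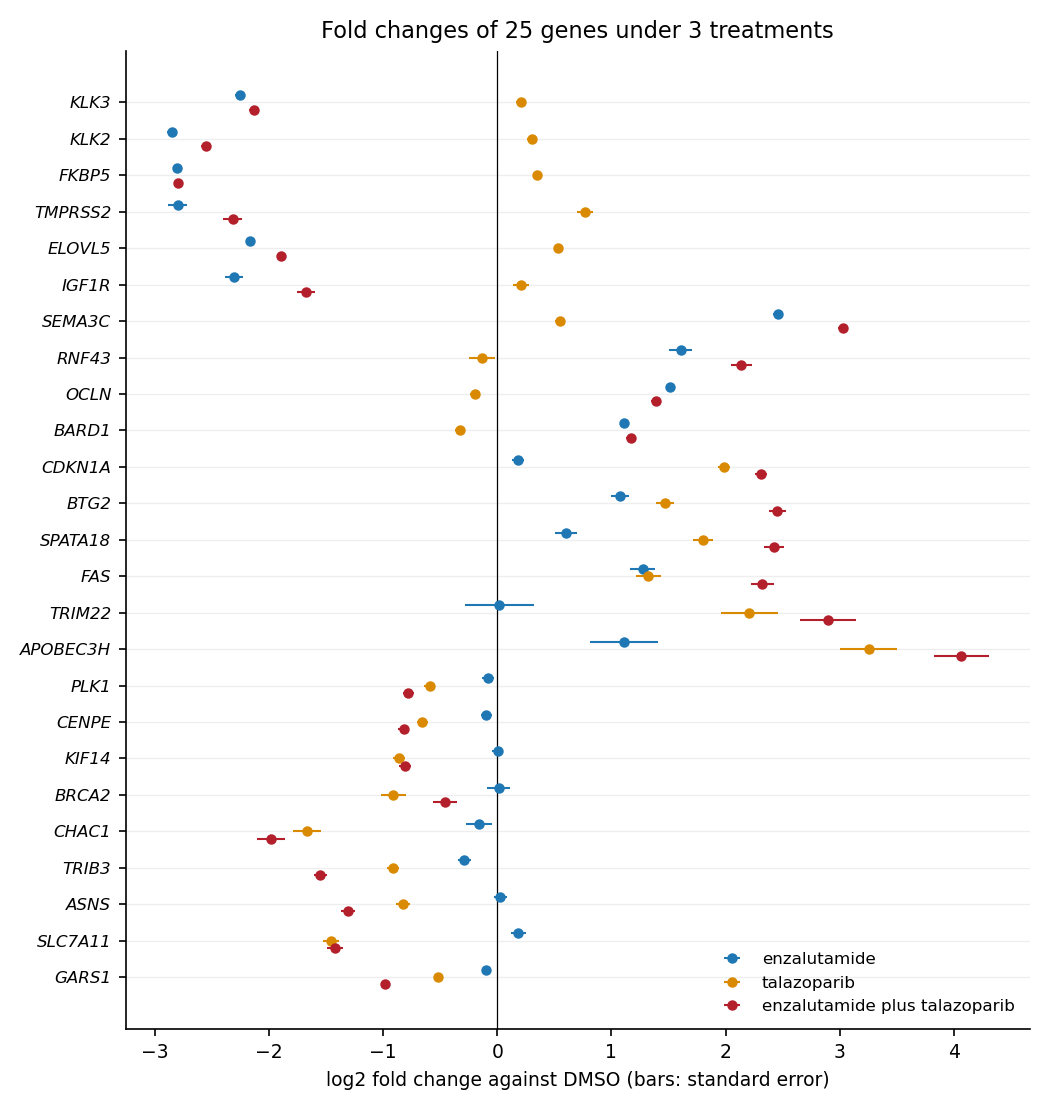
Log2 fold change against DMSO with its standard error for 25 genes under enzalutamide (blue), talazoparib (orange) and both (red). Androgen targets at the top lie left of 0 with enzalutamide and with both drugs, the p53 targets CDKN1A to TRIM22 lie furthest right with both drugs (CDKN1A at 2.31), and TRIB3, ASNS and GARS1 near the bottom lie furthest left with both drugs (ASNS at -1.31).

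Against abiraterone plus olaparib, the other ARPi and PARPi pair, 1087 genes (5.84%) were higher and 1250 (6.71%) lower with enzalutamide plus talazoparib. The pairs differ in both drugs and in dose, and the parts of each cannot be told apart. Mitosis genes were higher with enzalutamide plus talazoparib in 55 of 63 members by edgeR, with a median difference of 0.24 on the log2 scale, and ATF4 genes were higher in 20 of 30, with a median difference of 0.25. Androgen response genes were lower in 37 of 69 and higher in 2, with a median difference of -0.21. KLK3 was lower by 0.59 ± 0.045 (edgeR adjusted p = 7.29e-08), and CDKN1A differed by -0.40 ± 0.047 (edgeR adjusted p = 7.25e-06). FKBP5, TMPRSS2 and BARD1 did not pass the threshold (edgeR adjusted p = 0.345, 0.332 and 0.097).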

How the data were processed

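Stranded mRNA libraries of C4-2B cells were made with a KAPA kit and sequenced by the authors, who trimmed reads with Trim Galore, aligned them to GRCh38 with STAR and quantified genes with Salmon. The table deposited by the authors holds estimated counts that are whole numbers and not normalized, and it was used as given. The strand setting of the quantification was not given in the sources used here. Gene names and positions came from GENCODE on GRCh38, matched by gene ID for 62666 of 63187 IDs, and promoters from RefSeq (GRCh38.p14).

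Samples were grouped by their treatment labels. All 21 panel libraries were fitted with edgeR 4.0.16 in R 4.3.3 (filterByExpr by group, TMM scaling, robust quasi-likelihood test, 14 residual degrees of freedom), and p-values were adjusted by Benjamini-Hochberg over 18625 genes at a threshold of 0.05. CPM are TMM-scaled, and the SE of a log2 fold change is its size divided by the square root of the F statistic. The fit was tested on simulated counts of 18280 genes, of which 100 were changed by 1 and 100 by 2 on the log2 scale. All of these were called, with 5 calls among the unchanged genes. In the data 62.4% of genes were called, so the simulation does not test the scaling or the false calls in that setting. Alternatives were RLE and total-count scaling, no filter, at least 1 CPM in 3 libraries, only the groups compared, a replicate block, DESeq2 1.42.0, an added log2 fold change of at least 1, and each replicate left out. Leaving out a replicate gives a group of 2.

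The 29 gene lists and the members were chosen with earlier results of these data known. Named by rule were the 10 largest rises and falls among genes with a symbol (383 called genes without one also met the count minimum) that averaged 100 counts or more in the higher group, the 3 largest changes per list that averaged 50 or more, a list of genes of androgen response, DNA damage response and PARP activity (KLK3, TMPRSS2, FKBP5, KLK2, CDKN1A, MDM2, BRCA1, BRCA2, PALB2, ATM, ATR, CHEK1, PARP1, PARP2 and PARG among them), and the 5 highest and 5 lowest against enzalutamide among genes also past the threshold against DMSO and talazoparib. Some genes of this rule are not reported here. Any other gene was named after its values were seen. Columns of libraries outside the panel were not used. Figures were drawn with matplotlib 3.10.9.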

Additional observations from a re-analysis of the deposited data

How the results depend on the processing

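Of the counts of genes called in the 4 comparisons, 104 of 112 alternative values stayed within 1.5 times. The 8 others required a log2 fold change of at least 1, which left 1804 higher and 789 lower against DMSO, 328 and 115 against enzalutamide, 1350 and 801 against talazoparib and 22 and 103 against abiraterone plus olaparib. Of 754 alternative counts of list members, 738 stayed within 1.5 times, and 16 did not, all for lists in which 1 to 8 members had been called in that direction. Without a filter, DNA replication had 5 higher and the proteasome 1, the latter also with only the groups compared and with DESeq2, and 0 with at least 1 CPM in 3 libraries. Total-count scaling gave 2 higher in mitosis. Leaving out each replicate gave 3 to 5 higher in DNA replication (5 without DMSO replicate C), 1 to 3 in ATF4 (1 without DMSO replicate C or combination replicate A), 1 to 3 in aminoacyl-tRNA synthetases (1 without DMSO replicate A or B or combination replicate C), 1 to 2 in the proteasome (1 without DMSO replicate C or combination replicate C), and 5 to 7 lower in collagens (5 without combination replicate A or C). The cause was not tested. Of the 126 genes named by rule, BRCA2, BRCA1 and PALB2 changed their call in at least 1 alternative and none changed sign. Of 62 other genes named after their values were seen, 12 changed their call in at least 1 alternative: HOXB13, TNFRSF10A, TRIAP1, DDIT4, SARS2, SSR4, POLR1A, PSMB9, EPSTI1, IFIH1, UPK3B and MT-ND6. Of these 62, POLR1C, which did not pass, changed sign in 1 alternative, and 10 with few counts were not tested in at least 1. Total-count scaling moved the median of all genes from 0.01 to 0.04 on the log2 scale.

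Over all genes tested, deviations of same-lettered combination and DMSO libraries correlated between -0.047 and 0.0184. This measure weighs genes of few counts like all others, so it cannot exclude that the replicate letters pair the libraries. With the replicate block 5779 genes were higher and 5789 lower against DMSO, and no call of a gene named by rule changed, while SSR4 passed (edgeR adjusted p = 0.0496).

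With 3 libraries a group and totals of 29707578 to 49544844 counts, genes under the filter were not tested, and absence of a call there is not absence of a change.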

Other observations

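Some gene families outside the lists were described after their values were seen, without a test of the family. Against DMSO, 31.2% of all genes were higher and 31.3% lower, which is the background for these families too. Of 5 uroplakins, proteins of the urothelial surface, 4 were tested and all 4 rose against DMSO. UPK1A and UPK2 are among the 10 largest rises. Enzalutamide alone already raised UPK1A, UPK2 and UPK3A above DMSO, to means of 2.56, 3.28 and 4.93 CPM (edgeR adjusted p = 2.75e-11, 4.51e-12 and 2.75e-11). UPK3B did not pass with enzalutamide alone (edgeR adjusted p = 0.457). UPK3A held 1.56, 1.95 and 1.72 CPM with DMSO and 6.48, 6.32 and 6.56 CPM with the combination, and UPK3B had a log2 fold change of 1.11 ± 0.40 (edgeR adjusted p = 0.0166, or 0.0954 without DMSO replicate A and 0.0718 without combination replicate C), beside UPK1A and UPK2 given in the report. Of the APOBEC3 cytidine deaminases, 4 of 7 were tested. APOBEC3C went from 0.543, 0.349 and 0.304 CPM to 8.78, 8.63 and 7.96 CPM, a log2 fold change of 4.43 ± 0.19 (edgeR adjusted p = 6.89e-21) with no overlap, APOBEC3B rose by 0.36 and APOBEC3F did not pass (0.67, edgeR adjusted p = 0.138). APOBEC3 genes lie side by side and are alike in sequence, so the split of reads is uncertain.

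The 5 tested linker histones all fell, by 0.56 for H1-10 to 2.70 for H1-4 on the log2 scale. All 5 were also below enzalutamide alone and below talazoparib alone, where 17.9% and 29.7% of all genes were lower. H1-2 held 216, 209 and 211 CPM with DMSO and 73.2, 79.8 and 79.2 CPM with the combination. Replication-type histone messages lack a poly(A) tail, and the libraries were made by mRNA capture, so H1-2 and H1-4 were measured only as far as their RNA was captured. Of 13 protein-coding genes of the mitochondrial genome, 12 rose, with a median log2 fold change of 0.50, while MT-ND6, which is read from the opposite strand, had 0.12 ± 0.10 and did not pass (edgeR adjusted p = 0.303, or 0.0441 with only the groups compared). Against enzalutamide alone all 13 were higher with the combination, where 16.5% of all genes were higher. Against talazoparib alone only 5 were higher and 1 lower, where 29.1% of all genes were higher and 29.7% lower. MT-ND5 rose from 3651, 3698 and 3360.2 CPM to 6414, 6506 and 6209 CPM, where the nuclear respiratory chain genes had a median of -0.16.

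Of genes with at most 3 counts in every DMSO library, 25 had at least 20 counts in every combination library, 21 of them protein coding. ROR2, a Wnt receptor, TNC, tenascin C, and COL17A1, a hemidesmosome collagen, were among them, with 1.02, 0.99 and 1.08 CPM, 0.74, 0.825 and 0.878 CPM and 1.14, 1.32 and 0.908 CPM with the combination. In the reverse direction there were 20 genes, 16 of them protein coding, among them SLC38A4, AKR1D1, OR5B2 and SLC2A3.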
